A study of Mus musculus with 23 samples.

Results

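DNA methylation and demethylation enzymes were followed through 4 stages of blood cell formation from mouse embryonic stem cells, with and without the leukaemic fusion protein RUNX1-ETO. The 9 genes were taken by name: the methyltransferase genes Dnmt1, Dnmt3a and Dnmt3b, their cofactor genes Uhrf1 and Dnmt3l, the dioxygenase genes Tet1, Tet2 and Tet3, and the glycosylase gene Tdg. Each was read by the array probe whose RefSeq accession maps to its symbol, and by the brightest such probe where a gene had several. This gave 8 of the 9 genes, among 20145 genes with a matched probe, since no probe was matched to Tet1. All 8 exceeded the brightness minimum for a test, a log2 intensity of 6.5 on at least 1 array, as did 15202 genes in all.

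All groups came from 1 line of ES cells, labelled as strain C57BL/6, which carried human RUNX1-ETO behind a doxycycline (Dox)-responsive promoter on a background of wild-type RUNX1, so that the uninduced cells carried the transgene too. HE (haemogenic endothelium, sorted as KIT+ Tie2+ CD41-), HE2 (the same markers with CD41) and progenitors (KIT+ CD41+ Tie2-) were purified on day 2 of blast culture, with Dox at 0.1 μg per ml added on day 1 to the induced cultures. Myeloid progenitors were grown from such progenitors in expansion medium and induced for 12 h. HE, HE2 and myeloid progenitors had 3 arrays in each condition and progenitors 2.

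CpG methylation is written by the de novo enzymes DNMT3A and DNMT3B, with DNMT3L as a catalytically inactive partner, and is copied after replication by DNMT1, which UHRF1 guides to half-methylated sites. TET proteins oxidise 5-methylcytosine, and TDG excises the oxidised bases so that base excision repair can restore an unmodified cytosine. In blood, DNMT3A and TET2 are well known for their mutations in clonal haematopoiesis and myeloid leukaemia.

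The levels given are log2 intensities after background correction and quantile normalization, and a gene was called where its limma P, before adjustment, did not exceed 0.001 and its groups differed 2-fold or more. In bulk RNA, fewer cells of a type and less RNA per cell cannot be told apart. Between 48.8 and 78.4% of spots were well above background. The probe of Runx1t1, which cannot tell mouse transcript from transgene, had log2 changes with Dox of 1.24 ± 0.33 (SE) in HE, where it missed the threshold, and from 2.06 in myeloid progenitors to 3.96 in progenitors, where it was called. The endothelial marker Tek read 10.77 to 13.81 in uninduced HE, 9.58 to 11.31 in HE2, and 8.63 and 8.71 in progenitors. All 6 erythroid markers tested, among them the embryonic globin Hbb-y, were called higher in uninduced myeloid progenitors than in progenitors, with a mean log2 intensity over the list of 15.7 to 16.1 against 11.5 to 11.7 per array. For the granulocyte-macrophage list these ranges were 9.53 to 10.06 and 10.02 to 10.26. All myeloid progenitor arrays and induced progenitor array 2 lay on slide 3, and the other arrays compared lay on slides 1 and 2. In induced HE, HE2 and myeloid progenitors, the deposited log2 values of arrays 2 and 3 were each closest to the scanner values of the other (Spearman correlations of at least 0.996, against 0.937 to 0.948 with their own), while 17 of 23 were closest to their own array. Array numbers here follow the scanner values, and as both arrays share a group and a slide, group means and within-slide values do not depend on this.

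The promoters of Dnmt3b and Tet2 are shown because their transcripts moved furthest in opposite directions with Dox, with CpG dinucleotides in capitals, the substrate of these enzymes. The sequences are the 250 bases before the start site on the strand of the gene, from RefSeq on GRCm38.p6.
Dnmt3b (chr2:153649199-153649448, plus strand): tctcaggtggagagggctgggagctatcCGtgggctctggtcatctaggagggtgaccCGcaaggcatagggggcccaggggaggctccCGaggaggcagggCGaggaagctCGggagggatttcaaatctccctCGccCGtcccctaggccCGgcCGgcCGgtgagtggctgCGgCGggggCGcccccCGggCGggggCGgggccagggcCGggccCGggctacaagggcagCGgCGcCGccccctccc
Tet2 (chr3:133544391-133544640, minus strand): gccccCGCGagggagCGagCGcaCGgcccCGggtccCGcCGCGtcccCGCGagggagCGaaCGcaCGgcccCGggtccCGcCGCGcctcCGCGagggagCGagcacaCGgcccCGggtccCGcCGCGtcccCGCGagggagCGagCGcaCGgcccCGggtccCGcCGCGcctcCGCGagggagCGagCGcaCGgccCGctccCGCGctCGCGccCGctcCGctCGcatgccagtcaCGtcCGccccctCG
The window of Dnmt3b held 21 CpG and that of Tet2 51, where the median of 32851 windows was 6 and 16.3% and 0.067% of windows held at least as many. Neither window held the letters TGTGGT or TGCGGT of the RUNX motif or the letters TTTGGCGC, TTTCCCGC, TTTCGCGC or TTTGCCGC of the E2F motif on either strand.

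All 9 genes had at least 1 window in the table, and 3 matches to these letters were found among them, shown here because RUNX1-ETO binds the RUNX motif and E2F factors are known to drive the genes of S phase. The matched letters are in capitals on the strand of the gene.
Dnmt1, E2F (chr9:20952824-20952853, minus strand): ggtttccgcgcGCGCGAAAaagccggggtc
Uhrf1, E2F (chr17:56304117-56304146, plus strand): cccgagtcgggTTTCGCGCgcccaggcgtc
Uhrf1, RUNX (chr17:56303087-56303112, plus strand): acatgtagTGTGGTcagaagtctcgg
The E2F match of Dnmt1 lay 219 to 212 bases before the furthest downstream of its 3 listed start sites and read on the opposite strand. That of Uhrf1 lay 185 to 178 bases before its second start site, and the RUNX match 242 to 237 bases before its first. Among all windows, 1.86% held an E2F and 18.6% a RUNX match. Which start sites these cells use was not measured.

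Dnmt3b, which encodes a de novo methyltransferase, was the gene of the group that moved furthest across the stages. In uninduced HE its 3 arrays read 12.96, 13.19 and 12.79. In uninduced HE2 they read 14.12, 14.62 and 14.81. Every HE2 array lay above every HE array, a difference of 1.53 ± 0.24 (SE) on the log2 scale or 2.90-fold, with an adjusted P of 0.000437. Dnmt3b was the only one of the 8 genes called between uninduced HE and HE2, where 5.07% of all genes tested were called, 10.6% had an adjusted P of at most 0.05 and 26.8% had arrays that did not overlap. Within slide 1 (2 arrays against 2) the difference was 1.29 and within slide 2 (1 against 1) it was 2.02. The mean of 6 haematopoietic markers per array was 9.02 to 9.33 in uninduced HE and 10.84 to 11.30 in HE2, and that of 6 endothelial markers 12.56 to 13.99 and 11.59 to 12.28. The erythroid list was at 9.22 to 9.42 and 9.69 to 10.42, the granulocyte-macrophage list at 7.59 to 8.10 and 8.47 to 9.24, and the cardiac and smooth muscle list at 11.27 to 12.07 and 9.92 to 11.16. The part of the cell makeup in the difference was not tested. The direction and the call held under all 22 alternative settings, with changes between 1.12 and 1.73.

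The uninduced progenitors overlapped HE2 in Dnmt3b, with arrays of 14.38 and 15.00 and a change of 0.18 ± 0.27 that was not called. In uninduced myeloid progenitors the arrays read 13.71, 12.97 and 13.14, all below both progenitor arrays, as arrays did not overlap for 67.9% of genes in this step. This change of -1.42 ± 0.27, or 2.67-fold lower, was called, with an adjusted P of 0.000662. Slide and stage were largely confounded here, and with slide as a block the change was -1.71 ± 0.50 and no longer called (adjusted P = 0.0609), as was that of -1.11 without uninduced progenitor array 2. The call was lost as well with scan day as a block (-1.80) and in the fit of the 2 groups alone. The additional uninduced progenitor array on slide 3, which entered no comparison, read 14.90, and the mean of the uninduced myeloid arrays on its slide less this array was -1.63. The erythroid list was at 11.53 to 11.70 in uninduced progenitors and 15.68 to 16.12 in uninduced myeloid progenitors. The cardiac and smooth muscle list was at 8.66 to 9.24 and 7.34 to 7.75. The part of these cells in the changes of this step was not tested.

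In descending order, the Dnmt3b means were those of uninduced progenitors, uninduced HE2, induced progenitors, induced HE2, uninduced myeloid progenitors, uninduced HE, induced myeloid progenitors and induced HE. None of the 7 pairs of neighbours in this order passed the test, the widest step being 0.80 between induced progenitors and induced HE2 (adjusted P = 0.0557). The ends of the order differed by 2.32 ± 0.27, with an adjusted P of 1.8e-06.

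**Figure D1:**
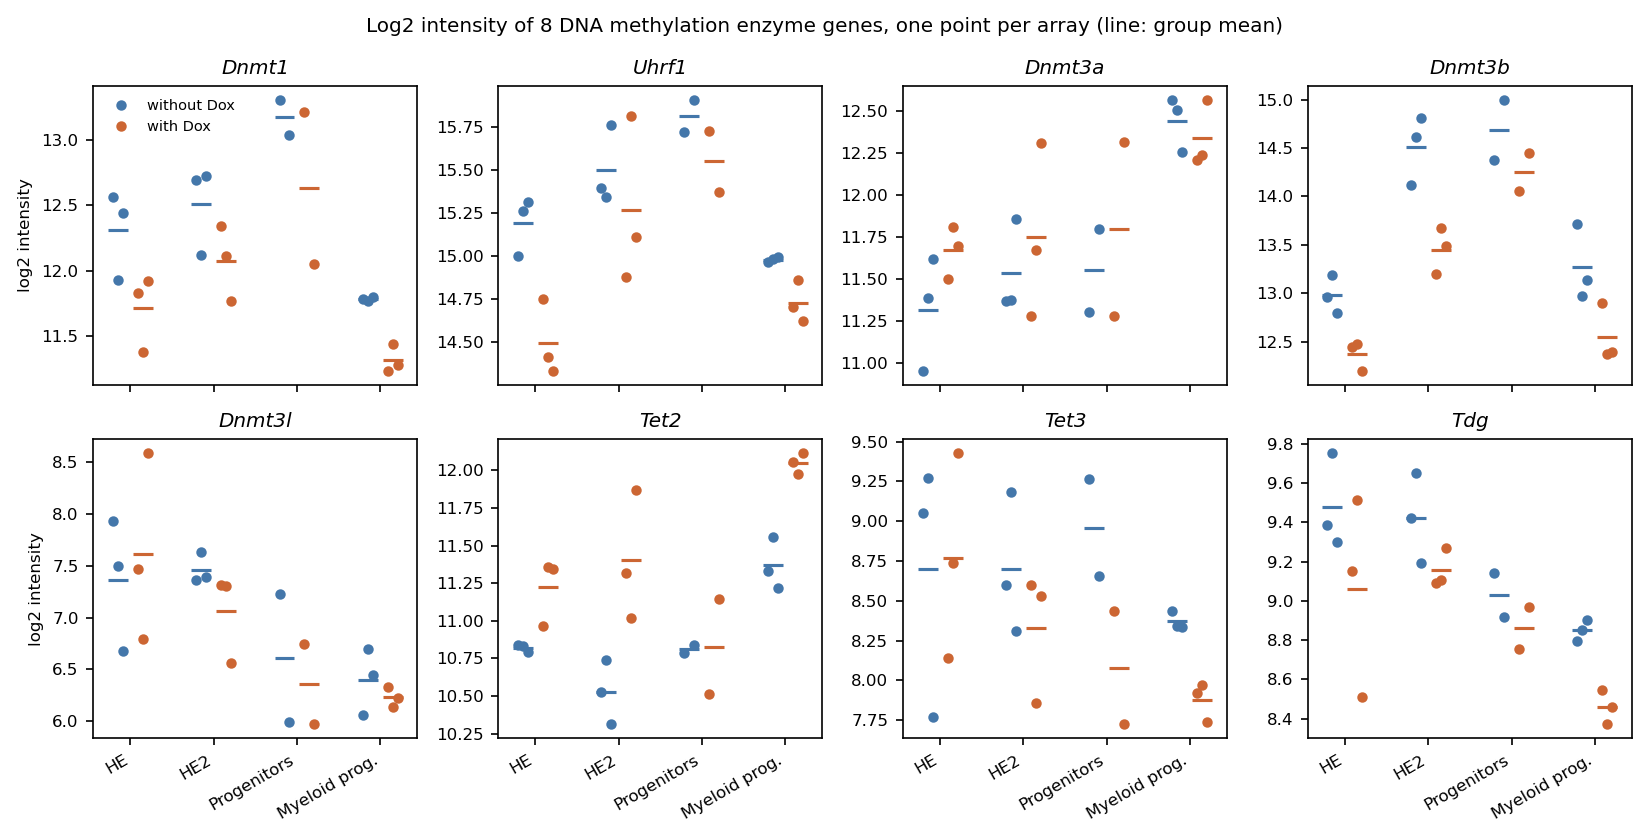
Log2 intensity (vertical axes, one scale per gene) of the 8 measured genes in HE, HE2, progenitors and myeloid progenitors without Dox (blue) and with Dox (orange), one point per array and a line at each group mean. Dnmt3b rises from a mean of 12.98 in uninduced HE to 14.52 in HE2, and its induced arrays lie below the uninduced ones in HE, HE2 and myeloid progenitors.

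With Dox, Dnmt3b fell in HE2. The induced HE2 arrays read 13.20, 13.67 and 13.49, all below the uninduced arrays. The change was -1.06 ± 0.24 (SE), or 2.09-fold lower, with an adjusted P of 0.00465. It was the only one of the 8 genes called with Dox in HE2, where 7.22% of all genes were called and 2.05% were called lower. The change kept its direction in all 22 alternatives and its call in 17 of them. It was not called in the fit of the 2 groups alone, without uninduced array 2 or 3, or without induced array 1 or 3. Within slides 1 and 2 it was -1.17 and -1.23. The mean of the endothelial list was 11.59 to 12.28 per array in uninduced and 12.93 to 13.38 in induced HE2, with 2 of its 6 markers called higher where 5.17% of all genes were, while the mean of the haematopoietic list was 10.84 to 11.30 and 9.47 to 10.25. The erythroid list was at 9.69 to 10.42 and 11.39 to 11.78, the granulocyte-macrophage list at 8.47 to 9.24 and 7.72 to 8.16, the cardiac and smooth muscle list at 9.92 to 11.16 and 9.24 to 9.45, and the mesenchymal list at 7.92 to 8.51 and 6.74 to 7.41. In none of these 6 lists did induced and uninduced HE2 overlap, and their part in the changes of Dnmt3b and Tet2 was not tested.

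The other 3 stages had lower means of Dnmt3b with Dox as well, and none was called. Induced HE read 12.44, 12.48 and 12.19, below all uninduced HE arrays, with a change of -0.61 ± 0.24 (adjusted P = 0.104). Induced progenitors read 14.06 and 14.44, overlapping the uninduced pair, with a change of -0.44 ± 0.30 (adjusted P = 0.433). The change in progenitors was -0.13 without uninduced array 2 and -0.32 within slide 1. Induced myeloid progenitors read 12.90, 12.37 and 12.39, below all uninduced arrays, with a change of -0.72 ± 0.24 (adjusted P = 0.0549). Arrays did not overlap, with Dox lower, for 11% of genes in HE, 15.2% in HE2 and 22.7% in myeloid progenitors.

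All 3 probes of Dnmt3b had the same direction with Dox in the 4 stages. The probes not chosen changed by -1.15 ± 0.25 and -1.19 ± 0.27 in HE2, and both of these changes passed the threshold. In progenitors they changed by -1.0 ± 0.31 and -1.02 ± 0.33, further than the -0.44 of the chosen probe, with adjusted P values of 0.0694 and 0.0860. From uninduced progenitors to myeloid progenitors they changed by -2.16 ± 0.28 and -2.59 ± 0.30, and both passed.

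**Figure D2:**
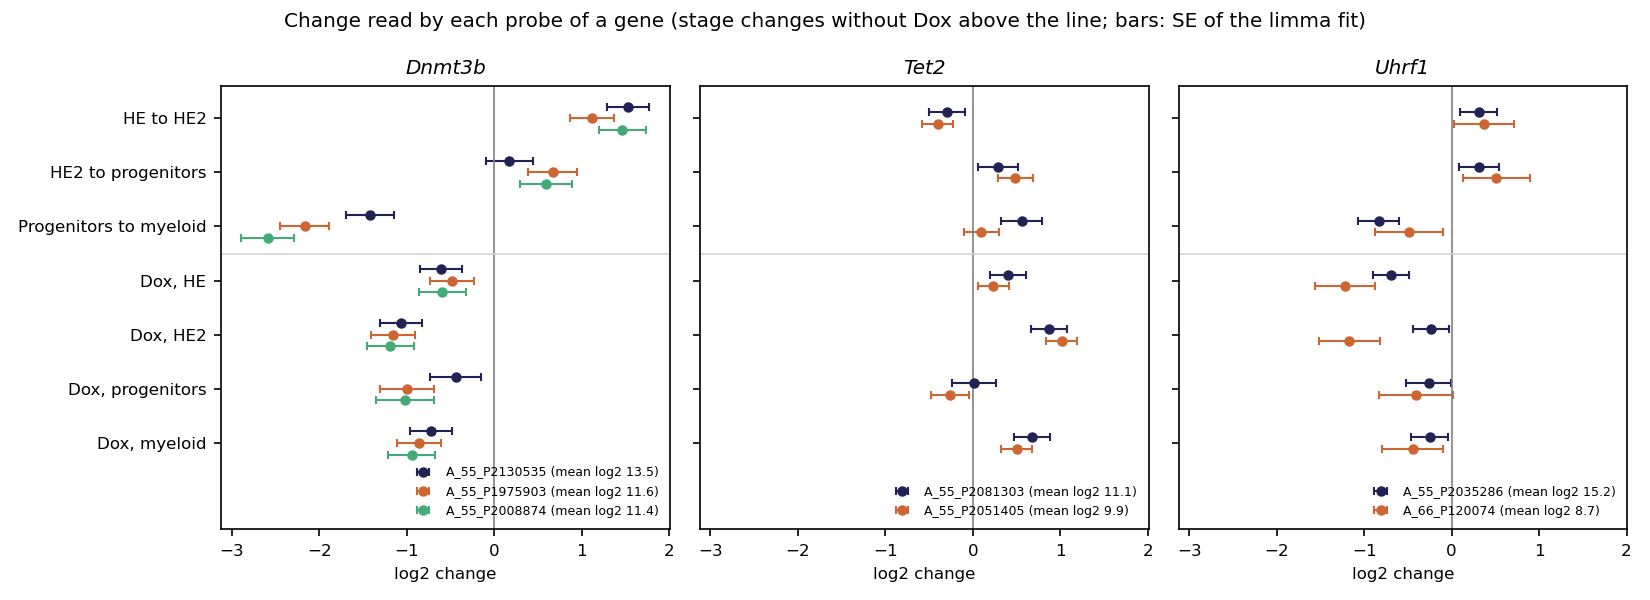
Log2 change (horizontal axes, with bars of 1 SE from the limma fit) read by each probe of Dnmt3b, Tet2 and Uhrf1, for stage changes without Dox above the grey line and for changes with Dox below it. The 3 probes of Dnmt3b lie to the left of 0 in every Dox comparison, with -1.06, -1.15 and -1.19 in HE2.

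With Dox present in both stages, Dnmt3b still rose from HE to HE2, by 1.08 ± 0.24 (adjusted P = 0.0109). In induced HE and HE2 the haematopoietic list was at 8.32 to 8.61 and 9.47 to 10.25, the cardiac and smooth muscle list at 10.75 to 11.08 and 9.24 to 9.45, and the mesenchymal list at 8.35 to 8.69 and 6.74 to 7.41. The erythroid list was at 10.41 to 11.25 and 11.39 to 11.78 and the granulocyte-macrophage list at 7.11 to 7.64 and 7.72 to 8.16, and the part of these cells was not tested. Dnmt3b was again the only one of the 8 genes called, against 3.1% of all genes. The call was lost with the mean of the gene's probes, in the fit of the 2 groups alone, and without induced HE array 3 or induced HE2 array 2 or 3, and the other probes read 0.44 and 0.87 without a call. From induced HE2 to induced progenitors it changed by 0.80 ± 0.27. None of the 8 genes was called between HE2 and progenitors, with Dox or without, against 7.36% and 5.39% of all genes. From induced progenitors to induced myeloid progenitors it fell by 1.70 ± 0.27 (adjusted P = 0.000244), and this call held in all 20 alternatives. Within slide 3, the 3 induced myeloid arrays less the 1 induced progenitor array gave -1.89.

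Dnmt1, the maintenance methyltransferase gene, was lowest in myeloid progenitors among the uninduced stages. Its uninduced arrays read 12.56, 11.93 and 12.44 in HE, 12.69, 12.12 and 12.72 in HE2, and 13.31 and 13.04 in progenitors. Neither step between these stages was called, with a change from HE2 to progenitors of 0.66 ± 0.29 (adjusted P = 0.227). In uninduced myeloid progenitors the arrays read 11.78, 11.77 and 11.80, a fall of 1.39 ± 0.29 from progenitors (adjusted P = 0.00149).

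Dnmt1 also fell from induced progenitors, at 13.21 and 12.05, to induced myeloid progenitors, at 11.23, 11.44 and 11.28. This change was -1.31 ± 0.29 (adjusted P = 0.00435). Induced progenitor array 1 lay on slide 1 and array 2, the lower of the pair, on slide 3. With slide as a block the changes were -0.26 ± 0.45 without Dox and -0.74 ± 0.31 with Dox, and neither was called. The call without Dox was also lost without uninduced progenitor array 1 (-1.25), and that with Dox without induced progenitor array 1 (-0.74) or induced myeloid array 1 or 3 (-1.27 and -1.29). With scan day as a block both calls were lost, and in the fit of the 2 groups alone that with Dox was lost. The additional uninduced progenitor array on slide 3 read 12.35, below both progenitor arrays of the comparison and above the myeloid arrays.

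With Dox, the mean of Dnmt1 was lower in each stage, and none of these changes was called. Induced HE arrays read 11.83, 11.38 and 11.93, below those of uninduced HE, and induced HE2 arrays read 12.34, 12.11 and 11.77, which overlapped uninduced HE2. The changes were -0.60 ± 0.26 for HE, -0.44 ± 0.26 for HE2, -0.54 ± 0.32 for progenitors and -0.47 ± 0.26 for myeloid progenitors. The value for progenitors rested on induced array 2, the one on slide 3: it was 0.04 without that array, -1.12 without induced array 1, -0.10 within slide 1 and 0.01 with slide as a block. In HE2 the value was -0.07 within slide 1 and -0.78 within slide 2, and -0.28 without induced array 3. In myeloid progenitors the induced arrays lay below the uninduced ones. Arrays lay apart in this direction for 11% of all genes in HE and 22.7% in myeloid progenitors. Adjusted P values for the 4 changes lay between 0.147 and 0.364.

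Uhrf1, whose protein recruits DNMT1 to hemimethylated DNA, followed a like course. Its uninduced arrays read 15.00, 15.26 and 15.32 in HE, 15.40, 15.34 and 15.76 in HE2, 15.72 and 15.91 in progenitors, and 14.96, 14.98 and 14.99 in myeloid progenitors. The step from progenitors to myeloid progenitors was -0.84 ± 0.23 (adjusted P = 0.0103), which missed both limits of a call. With slide as a block it was -0.38 ± 0.41 (adjusted P = 0.777), and the uninduced myeloid mean less the additional progenitor array on slide 3 was -0.48.

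With Dox, the HE arrays of Uhrf1 read 14.75, 14.41 and 14.33, all below uninduced HE, as for 11% of genes. The change was -0.69 ± 0.21 (adjusted P = 0.0284). The mean per array of the erythroid list was 9.22 to 9.42 in uninduced and 10.41 to 11.25 in induced HE, that of the haematopoietic list 9.02 to 9.33 and 8.32 to 8.61, and that of the cardiac and smooth muscle list 11.27 to 12.07 and 10.75 to 11.08, and the part of these cells in the changes with Dox in HE was not tested. The change of Uhrf1 had the lowest adjusted P among the 8 genes with Dox in HE, where none was called against 7.09% of all genes. The change was -0.38 within slide 1 and -0.94 within slide 2, and its adjusted P ranged from 0.00931 to 0.115 over 21 alternatives. The changes in the other 3 stages lay between -0.26 and -0.23, with adjusted P values from 0.515 to 0.607. The change in HE2 was -0.04 without induced array 1 and -0.51 without induced array 2, and that in progenitors was 0.01 within slide 1. The second, dimmer probe of Uhrf1, matched to another of its transcripts, changed by -1.22 ± 0.35 in HE and by -1.17 ± 0.35 in HE2, with adjusted P values of 0.0207 and 0.0257. In HE2 the brighter probe had changed by only -0.23 ± 0.21, so that the 2 probes disagreed in size there.

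Dnmt3a, the other de novo methyltransferase gene, was highest in myeloid progenitors. Its uninduced arrays read 10.95, 11.39 and 11.62 in HE, 11.37, 11.37 and 11.86 in HE2, 11.30 and 11.80 in progenitors, and 12.57, 12.51 and 12.26 in myeloid progenitors. The myeloid arrays lay above all the other uninduced arrays, and the step from progenitors was 0.89 ± 0.31 (adjusted P = 0.0350), which missed the threshold and did not keep its sign with slide as a block (-0.14). With Dox no stage had arrays that lay apart, and the changes lay between -0.11 and 0.35.

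Dnmt3l, which encodes the inactive partner, was the dimmest of the 8 chosen probes and was well above background on 21 of 22 arrays. Its group means lay between 6.23 in induced myeloid progenitors and 7.62 in induced HE, and its 3 induced HE arrays alone ranged from 6.79 to 8.59. No change with Dox or between neighbouring stages was called.

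Tet2, which encodes a 5-methylcytosine dioxygenase, moved the other way from Dnmt3b with Dox. In uninduced HE2 the arrays read 10.53, 10.74 and 10.31 and in induced HE2 11.32, 11.02 and 11.87. Every induced array lay above every uninduced one, a change of 0.88 ± 0.21 (SE), or 1.84-fold, with an adjusted P of 0.00623. Its unadjusted P of 0.000502 passed and its size fell short of 2-fold, so that it was not called. The second probe of Tet2 changed by 1.02 ± 0.18 in HE2, which passed the threshold (adjusted P = 0.000647). Within slides 1 and 2 the chosen probe changed by 0.69 and 1.13 in HE2.

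Tet2 in HE read 10.84, 10.83 and 10.79 without and 10.96, 11.36 and 11.35 with Dox, which did not overlap, a change of 0.40 ± 0.21 (adjusted P = 0.226). Within slides 1 and 2 the change in HE was 0.13 and 0.56. In myeloid progenitors it read 11.33, 11.56 and 11.22 without and 12.06, 11.97 and 12.12 with Dox, again without overlap, a change of 0.68 ± 0.21 (adjusted P = 0.0342). The mean of the endothelial list in these myeloid arrays was 9.80 to 10.47 without and 12.08 to 12.43 with Dox, with 5 of 6 markers called higher where 5.13% of all genes were. The haematopoietic list was at 11.82 to 12.18 and 11.52 to 11.80, the granulocyte-macrophage list at 9.53 to 10.06 and 9.03 to 9.33, the cardiac and smooth muscle list at 7.34 to 7.75 and 7.99 to 8.38, and the mesenchymal list at 6.10 to 6.81 and 6.85 to 7.45. The part of these cells in the change was not tested. Progenitors read 10.79 and 10.84 without and 10.51 and 11.14 with Dox, a change of 0.01 ± 0.25. The lower of these induced arrays lay on slide 1, where the induced less the uninduced array gave -0.28, and the higher lay on slide 3, where the induced less the additional uninduced array gave 0.44. The induced pair lay on both sides of the uninduced pair. Arrays did not overlap, with Dox higher, for 14.2% of genes in HE, 17% in HE2 and 23.9% in myeloid progenitors, so that Tet2 shared this pattern with many genes in each stage taken alone.

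From induced progenitors to induced myeloid progenitors Tet2 rose by 1.22 ± 0.23, or 2.33-fold (adjusted P = 0.00120). Together with Dnmt1 and Dnmt3b it made 3 of the 8 genes called in this step, against 7.37% of all genes. The erythroid list was at 13.49 to 13.92 in induced progenitors and 15.28 to 15.82 in induced myeloid progenitors, and the endothelial list at 11.55 to 11.86 and 12.08 to 12.43, and their part was not tested. The same step without Dox had 2 of 8 called, Dnmt1 and Dnmt3b, against 13.9% of all genes, and the change of Tet2 was 0.56 ± 0.23 (adjusted P = 0.0717) or, with slide as a block, -0.06 ± 0.41. With slide as a block, the change of Tet2 with Dox was 0.91 ± 0.27 and fell short of 2-fold, as did the 0.91 without induced progenitor array 1 and the 0.86 of the second probe.

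Tet3, a further dioxygenase gene, had means between 7.88 and 8.96 and arrays of 1 group spread widely, as in uninduced HE with 9.05, 9.27 and 7.77. Its change with Dox was -0.88 ± 0.45 in progenitors and lay between -0.49 and 0.07 in the other stages. None was called. In HE its direction was not stable, with -1.02 within slide 1 and 1.31 within slide 2. In progenitors it was -1.24 and -0.52 without induced array 1 and 2, and -0.32 and 0.54 by the other probes. In myeloid progenitors the induced arrays of Tet3, 7.92, 7.97 and 7.74, lay below the uninduced ones, 8.43, 8.34 and 8.34, as for 22.7% of genes. The sign there differed in 1 of 22 alternatives. Tdg, the thymine DNA glycosylase gene, had means between 8.46 and 9.48 with its highest in uninduced HE. Its changes with Dox were -0.17 ± 0.25 in progenitors, -0.26 ± 0.21 in HE2, -0.39 ± 0.21 in myeloid progenitors and -0.42 ± 0.21 in HE. The value in HE was -0.15 without induced array 3 and -0.65 without induced array 2. That in progenitors ranged from -0.36 to 0.04 over 20 alternatives and was -0.39 within slide 1. Only in myeloid progenitors did its induced arrays, 8.54, 8.37 and 8.46, lie apart from the uninduced ones, 8.80, 8.85 and 8.90, again as for 22.7% of genes.

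**Figure D3:**
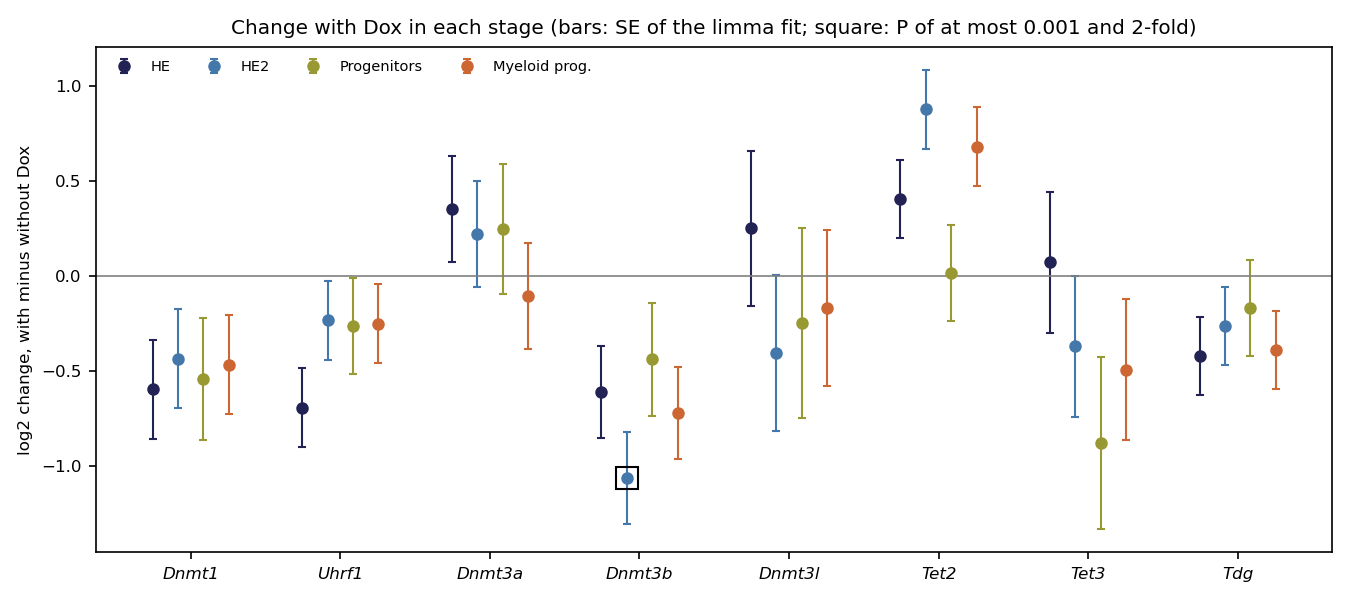
Log2 change with Dox (vertical axis, induced minus uninduced mean, bars of 1 SE from the limma fit) of the 8 genes in HE, HE2, progenitors and myeloid progenitors, with a square around a change that was called. Dnmt3b in HE2, at -1.06, holds the only square, and Tet2 has positive changes of 0.40, 0.88 and 0.68 outside the progenitors.

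None of the 8 genes was called with Dox in progenitors or myeloid progenitors, where 3.73% and 6.31% of all genes were called. With an adjusted P of at most 0.05 in place of these limits, Uhrf1 passed in HE (15.6% of all genes passed), Dnmt3b and Tet2 in HE2 (17.2%), and Tet2 in myeloid progenitors (13.8%). By the same limit Dnmt3b and Uhrf1 passed from induced HE to HE2 (5.67%), and Dnmt1, Dnmt3b and Uhrf1 passed from progenitors to myeloid progenitors in both conditions, with Dnmt3a added without Dox (33.1%) and Tet2 with Dox (18.2%). From induced HE to HE2, Uhrf1 changed by 0.77 ± 0.21 (adjusted P = 0.0350). This was 0.13 within slide 1 (1 array against 1) and 1.09 within slide 2 (2 against 2). Over 21 alternatives it lay between 0.43 and 0.96, with adjusted P values up to 0.586.

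Since several genes had like changes in each stage, the mean of the 4 changes was tested as well, a comparison that was added after the values had been seen. No gene reached 2-fold in this mean, against 5.76% of all genes called. Where any size with an adjusted P up to 0.05 was taken, 5 of the 8 passed, where 35.4% of all genes did. Dnmt3b had a mean change of -0.71 ± 0.13 (SE, adjusted P = 0.000283), Dnmt1 of -0.51 ± 0.14 (adjusted P = 0.00753), Uhrf1 of -0.36 ± 0.11 (adjusted P = 0.0159) and Tdg of -0.31 ± 0.11 (adjusted P = 0.0331). Tet2 had the one positive change among them, 0.49 ± 0.11 (adjusted P = 0.00171). The signs of all 5 held under every alternative of this mean. The adjusted P of Tdg did not stay under 0.05: it was 0.0533 with 75th percentile scaling, 0.0990 and 0.138 with its other probes, and up to 0.0850 with 1 array left out.

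Whether the response to Dox differed between stages was tested as an interaction. No gene of the 8 was called between HE and HE2, between HE and myeloid progenitors or, in a comparison added later, between HE2 and progenitors, against 1.34%, 4.72% and 0.645% of all genes. At an unadjusted P of at most 0.05, 1 of these 24 terms passed, that of Tet2 between HE2 and progenitors, at -0.86 ± 0.33 (adjusted P = 0.461). Without induced progenitor array 1 this term was -0.55. The second probe of Tet2 passed the threshold for this term, at -1.28 ± 0.28, with an adjusted P of 0.0849. The fall of Dnmt3b in HE2 was thus not shown to differ from its change in HE, with a difference of -0.45 ± 0.34, or from that in progenitors, with 0.63 ± 0.38.

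Over the 22 arrays, Dnmt3b and Uhrf1 had a Pearson correlation of 0.85, Dnmt1 and Uhrf1 of 0.77, and Dnmt1 and Tet2 of -0.80. Dnmt3a and Tet2 had 0.69. These values describe the arrays, which share their stage, Dox and slide. Among the genes most like Dnmt3b, of 14920 genes, were Srl (0.94) and Rcc2 (0.93), and Rcc2 was also among the nearest of Uhrf1 (0.90). The nearest of Dnmt1 were Zc3hc1 (0.94), Ptbp1 (0.93) and Cxxc5 (0.93), and those of Tet2 were Wdr81, Cnppd1 and Gch1 (0.94, 0.94 and 0.92).

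UHRF1 and DNMT1 act at replication, so a list of 16 S-phase genes was read beside them. Of 15 tested, 1 fell with Dox in HE (the replication licensing gene Cdc6, -1.12 ± 0.22), none was called in HE2 or progenitors, and 1 fell in myeloid progenitors (the cyclin gene Ccne1, -1.02 ± 0.22), near the 7.09%, 7.22%, 3.73% and 6.31% of all genes called in the 4 stages. The medians of the 15 changes were -0.73 for HE, -0.62 for HE2, 0.005 for progenitors and -0.46 for myeloid progenitors, where all genes tested had medians between -0.04 and -0.01. Per array, the mean of the 15 genes was 13.08 to 13.28 in uninduced and 12.17 to 12.62 in induced HE, and 13.34 to 13.55 and 12.54 to 13.17 in HE2. In myeloid progenitors it was 13.42 to 13.46 and 12.90 to 13.06. The progenitors differed from this, at 13.54 and 13.55 without and 13.45 and 13.62 with Dox. The correlation with this mean over the 22 arrays was 0.73 for Uhrf1, 0.72 for Dnmt3b, 0.49 for Dnmt1 and -0.46 for Tet2. The part of the S-phase genes in these results was not tested.

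**Figure D4:**
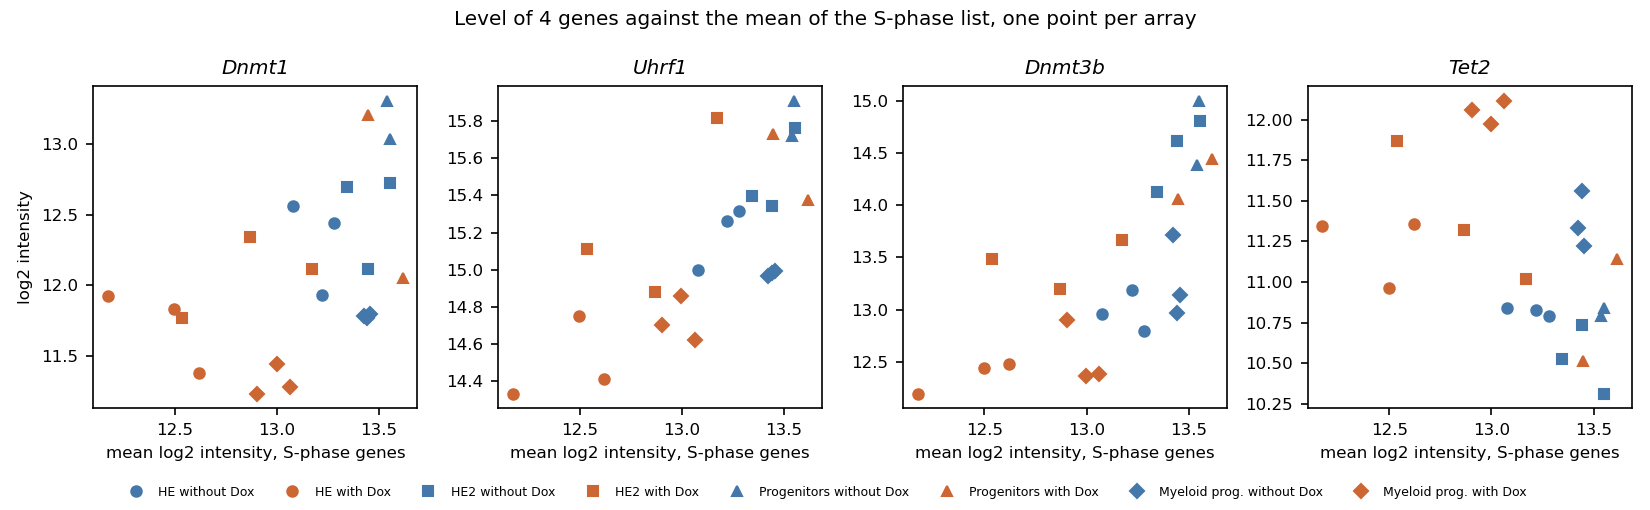
Log2 intensity of Dnmt1, Uhrf1, Dnmt3b and Tet2 (vertical axes) against the mean log2 intensity of 15 S-phase genes (horizontal axes), one point per array, with shapes for the 4 stages, blue without Dox and orange with Dox. The induced HE arrays have S-phase means of 12.17 to 12.62, while both induced progenitor arrays lie with the uninduced ones at 13.45 and 13.62.

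The other genes of the pathway were read from lists fixed by name. Among 8 methyl-CpG binding proteins, Zbtb4, which encodes a zinc finger protein that binds methylated CpG, rose with Dox in all 4 stages, and it was the 1 gene of the list called in each, where 3.73 to 7.22% of all genes were called. Its changes ranged from 1.42 ± 0.33 in progenitors to 1.89 ± 0.27 in HE2, with 1.66 ± 0.27 in HE and 1.61 ± 0.27 in myeloid progenitors, and its highest adjusted P was 0.0140. The medians of the 8 changes lay between -0.03 and 0.18. From uninduced progenitors to myeloid progenitors the list had 1 call of 8, against 13.9% of all genes, Mbd1, another methyl-CpG binding gene, which rose by 1.54 ± 0.24.

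Among 9 base excision repair genes, Neil2, a DNA glycosylase gene, rose with Dox by 1.94 ± 0.30 in HE, 2.17 ± 0.30 in HE2 and 1.90 ± 0.37 in progenitors. It was the only gene of the list called in these stages, and none was called in myeloid progenitors, against 3.73 to 7.22% of all genes over the 4 stages. In myeloid progenitors Neil2 changed by 0.73 ± 0.30 (adjusted P = 0.134). The step from uninduced progenitors to myeloid progenitors had 2 calls of 9, against 13.9% of all genes, Ung, the uracil DNA glycosylase gene, at 2.16 ± 0.43, and Neil2 at 1.51 ± 0.34.

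Of 12 TET partners and cofactor genes tested, none was called with Dox in HE, against 7.09% of all genes, 1 in HE2 against 7.22%, 1 in progenitors against 3.73% and 3 in myeloid progenitors against 6.31%. Cxxc5, which encodes a CXXC zinc finger protein related to a TET2 partner, fell in HE2 by 1.07 ± 0.26. Wt1, a transcription factor gene whose protein binds TET2, rose by 4.81 ± 0.53 in progenitors and 3.04 ± 0.43 in myeloid progenitors. In the latter Gadd45g rose by 1.93 ± 0.27 and Gadd45a fell by 1.06 ± 0.24, both members of a family linked to DNA repair and demethylation. For Wt1 the response to Dox was 2.62 ± 0.62 larger in myeloid progenitors than in HE, and for Gadd45g 2.56 ± 0.38, and both interaction terms were called, against 4.72% of all genes. The medians of the 12 changes with Dox lay between 0.03 and 0.12. In progenitors, where Wt1, Neil2 and Zbtb4 were called, the erythroid list was at 11.53 to 11.70 without and 13.49 to 13.92 with Dox, the endothelial list at 10.26 to 10.30 and 11.55 to 11.86, the granulocyte-macrophage list at 10.02 to 10.26 and 8.86 to 9.30, and the haematopoietic list at 12.10 and 11.52 to 11.56. The part of these cells was not tested. Between uninduced progenitors and myeloid progenitors 3 of the 12 were called, against 13.9% of all genes, of which Gadd45a rose by 2.42 ± 0.27 and Cxxc5 and Gadd45b fell by 1.79 ± 0.29 and 1.49 ± 0.32.

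Of 10 maintenance partners of DNMT1 tested, none was called with Dox in any stage, against 3.73 to 7.22% of all genes, and 1 fell between induced progenitors and induced myeloid progenitors, the chromatin remodeller gene Hells, at -1.73 ± 0.34, where 7.37% of all genes were called. Of 10 methyl donor genes, none was called with Dox in a single stage, against 3.73 to 7.22% of all genes, or between stages, against 3.1 to 13.9%. In the mean of the 4 stages Ahcy, which encodes the hydrolase that removes the S-adenosylhomocysteine left by methyl transfer, was the 1 gene called, at -1.06 ± 0.26, against 5.76% of all genes. Its arrays spread widely, and its changes in single stages had adjusted P values from 0.0566 to 0.568.

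**Figure D5:**
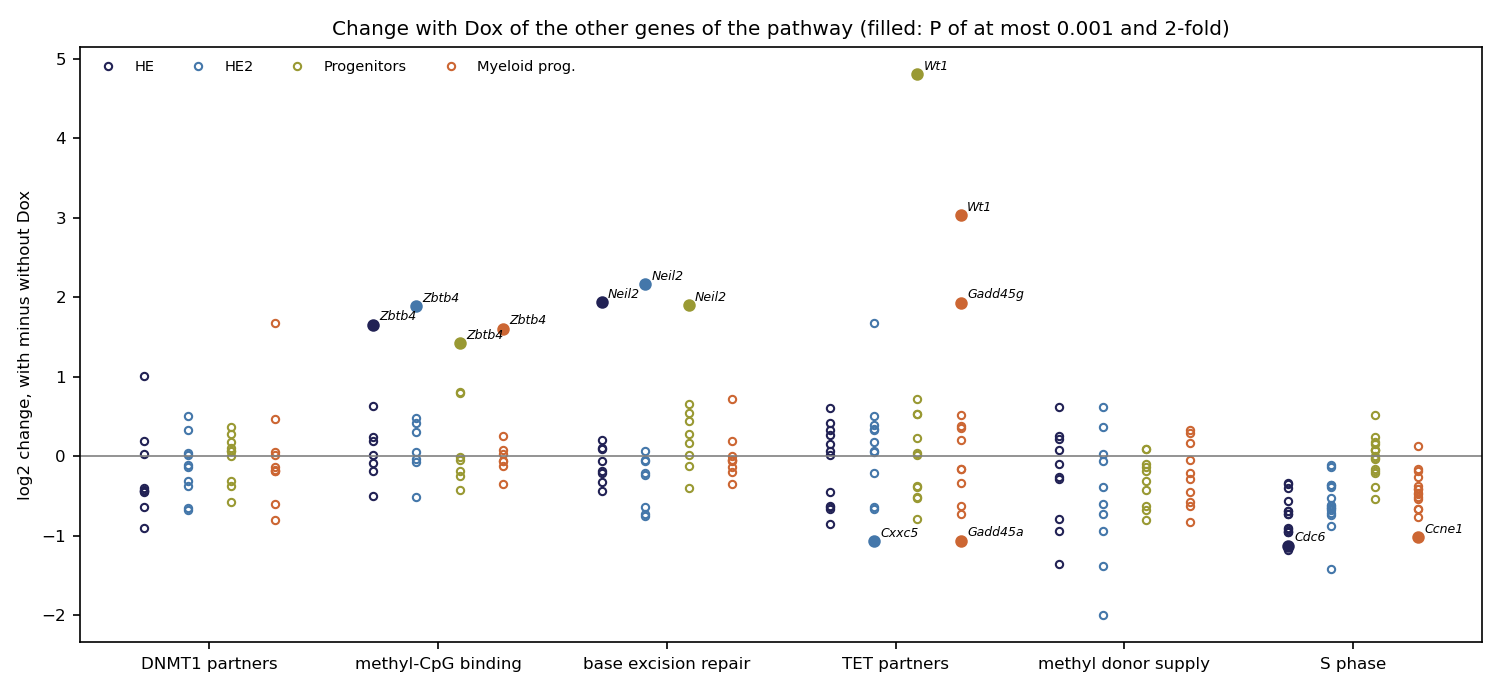
Log2 change with Dox (vertical axis) of every tested gene on 6 lists of the pathway (horizontal axis), with colours for HE, HE2, progenitors and myeloid progenitors, filled and named where the change was called. Zbtb4 is filled in all 4 stages and Neil2 in 3, while no gene of the DNMT1 partners is filled.

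Genes under the control of methylation were read from the same arrays. Of 10 germline genes known to be silenced by promoter methylation, 4 reached the brightness minimum and none was called in any comparison, against 0.645 to 13.9% of all genes. The probe of Taf7l was well above background on every array and that of Sycp3 on every HE and HE2 array. The probes of Stk31 and Tdrd1 were never well above background, and those of the other genes on the list were so on some arrays. Of 10 pluripotent cell markers, 7 were tested, among which Lin28a, an RNA-binding protein gene, fell with Dox by 1.58 ± 0.31 in HE and 1.54 ± 0.31 in HE2, as the 1 of 7 called in each, where 7.09% and 7.22% of all genes were. The probe of Sox2 did not exceed background clearly in 7 of the 8 groups.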

How the data were processed

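Total RNA of 23 samples was labelled with Cy3 and hybridised, in 1 colour, to mouse gene expression arrays of Agilent. Spot intensity values, as deposited, came from Feature Extraction (version 10.7.1.1 per the submitters' processing notes and 10.7.3.1 per the file headers), with background and other quality flags per spot, and log2 values per array that they had background corrected and quantile normalized, used here as an alternative. Background was corrected with normexp (offset 16), 3671 control spots and outlier spots were left out, and the 23 arrays were quantile normalized. Of 55681 probes, 26582 matched a RefSeq accession in a GRCm38.p6 table, used for names, promoters and their positions, since the array was annotated on another build. The brightest probe stood for each gene. Group means were fitted to 22 arrays with limma 3.58.1 in R 4.3.3 (14 residual degrees of freedom), with P values adjusted by Benjamini-Hochberg over all genes. The fit was tested on simulated data.

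The additional uninduced progenitor array, labelled both techrep and replicate 3, was left out of the fit. Labels of the other replicates call them biological, apart from induced myeloid progenitor array 3, whose labels disagree. The number of arrays limits the precision. Arrays of uninduced HE and HE2 that share a replicate number deviated together across genes (correlations of 0.39, 0.79 and 0.61), but the comparison was fitted without this pairing, with the replicate number as a block as an alternative. The members and lists were chosen with earlier results of these data known. Named genes were the members, list genes past the threshold (at most 4 per list and comparison) and the 3 genes most correlated with each member described, of which 1 is not reported here. Alternatives were 75th percentile scaling, other background corrections, no filter, other probes, slide, scan day or replicate as a block, other sample sets and thresholds, and leaving out each array.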

Additional observations from a re-analysis of the deposited data

How the results depend on the processing

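Of 1552 values of a gene under another processing setting, 14 lost and 14 gained a call, none reversed, and 45 that were not called changed sign. Of 880 with 1 array left out, 13 lost and 1 gained a call and 68 that were not called changed sign, and of 112 with another probe of the gene, 3 lost and 2 gained one and 19 changed sign. At an adjusted P of at most 0.05 without a minimum fold, 1 gene of the 8 was called with Dox in HE, 2 in HE2 and 1 in myeloid progenitors, 2 from induced HE to induced HE2, 4 from uninduced progenitors to myeloid progenitors, and 5 in the mean of the 4 stages. In fits of the groups compared alone, with fewer arrays, 0 were called with Dox in HE2, 0 from induced HE to induced HE2, 1 from progenitors to myeloid progenitors without Dox and 1 with Dox. With the mean of a gene's probes 0 were called from induced HE to induced HE2. With scan day or slide as a block, 0 were called from progenitors to myeloid progenitors without Dox and 1 with Dox, and the cause was not tested. Leaving out 1 array gave 0 to 2 calls with Dox in HE2 (2 without induced array 2), 0 to 1 from induced HE to induced HE2, 1 to 2 from uninduced progenitors to myeloid progenitors (1 without either progenitor array) and 1 to 3 for the same step with Dox (1 without induced progenitor array 1). The replicate number as a block, which pairs uninduced HE with HE2, left 1 gene called there and 1 with Dox in HE2, and changed no other count. In the induced groups this block rests on array numbers that the deposited log2 values order otherwise. Normalizing myeloid progenitors apart was not run for their comparison with progenitors, which it would remove. Signal over background limits Dnmt3l most.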
